A study of Gallus gallus with 9 samples.

Results

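The genes described here drifted upward in chicken liver in small steps, so that neither the step from embryonic day 13 to 5 weeks nor the step from 5 to 42 weeks reached 1 on the log2 scale, while the sum of both did. They were chosen from the mRNA table by the mean log2(FPKM + 1) at each age, where FPKM counts sequenced fragments relative to transcript length and to the size of the library. A gene had to reach 1 FPKM in 3 or more of the 9 libraries, with both steps under 1 in size and a difference of at least 1 between 42 weeks and day 13. These limits were met by 117 genes, which is 1.02% of the 11512 genes that passed the filter and 14.4% of the 815 genes with a total rise of at least 1. Of the 13949 genes in the table, those below the filter were not considered. Because the limits leave no other way to reach a sum of 1, every chosen gene had a higher mean at 5 weeks than at day 13 and a higher mean at 42 weeks than at 5 weeks, and the total rise had to lie under 2.

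The libraries came from liver of Gallus gallus taken before hatching, at embryonic day 13, at 5 weeks, an age the labels call rapid growth, and at 42 weeks, which they call adult and aged, with 3 biological replicates per age. No genotype, treatment, breed, sex, flock or sequencing batch is given in the sources used here. Age is the one labelled difference between the groups, and any batch that ran with it cannot be told apart from it. Because whole liver was used, a change in the number of cells of a type and a change in RNA per cell cannot be told apart below. The labelled tissue could not be checked against marker genes, since the deposited identifiers are not paired with gene names, and 0 of the 13949 identifiers matched the reference gene table.

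The liver of a chick embryo works largely on lipid from the yolk, whereas after hatching the organ meets a diet of feed and becomes the main site of fatty acid synthesis in the bird. Tissue growth weighs on the embryonic organ, while in the grown bird secretion of plasma proteins and detoxification take up much of the liver's output. In laying hens the making of yolk precursors under oestrogen does so as well. These are general facts about the tissue and are not drawn from the libraries.

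The drifting genes started low and ended above the typical gene. Their median was 1.75, 1.74 and 1.93 log2 units in the 3 day-13 libraries, 2.41, 2.67 and 2.27 at 5 weeks, and 2.86, 3.11 and 3.26 at 42 weeks. The 3 ages did not overlap in this median, which follows from the choice of the genes. Over all 11512 genes the medians moved the opposite way, from 3.17 to 3.30 at day 13 to 2.68 to 2.87 at 5 weeks and 2.41 to 2.86 at 42 weeks. The typical drifting gene thus lay 1.29 to 1.54 log2 units under the typical tested gene before hatching, between 0.20 and 0.44 under it at 5 weeks, and 0.40 to 0.52 above it at 42 weeks. In FPKM, the median over the chosen genes of their mean at each age came to 2.62 before hatching, 4.51 in the 5-week and 7.41 in the 42-week birds, against 8.42, 5.78 and 5.25 over all tested genes.

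**Figure D1:**
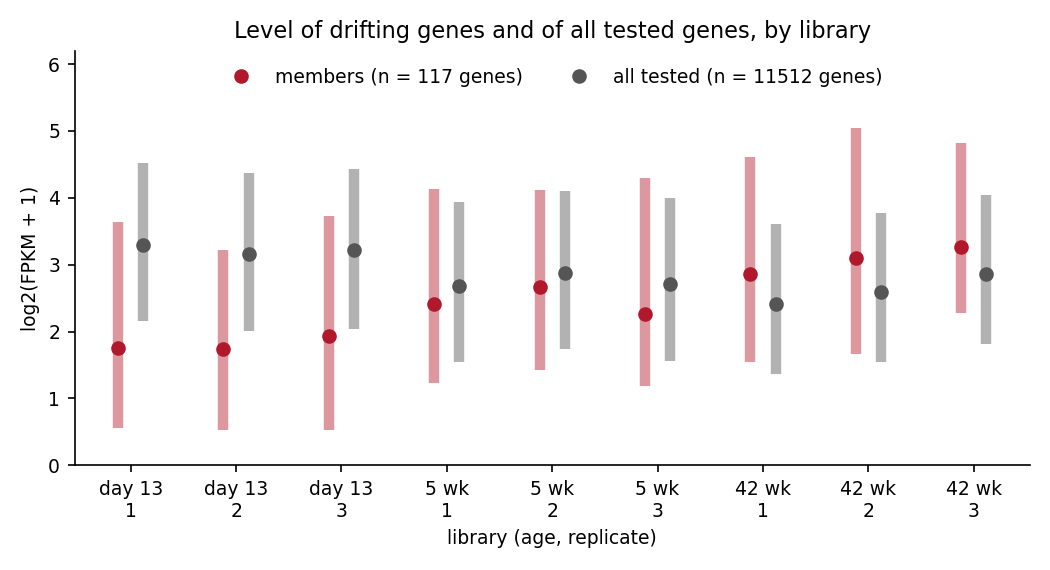
Median (points) and interquartile range (bars) of log2(FPKM + 1) in each of the 9 libraries, for the 117 drifting genes and for all 11512 tested genes. The drifting genes had medians of 1.74 to 1.93 at day 13 and 2.86 to 3.26 at 42 weeks, while the median of all tested genes was lower after hatching than before it.

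The first step had a median of 0.70 log2 units (interquartile range 0.49 to 0.83) and the second a median of 0.58 (0.42 to 0.77). The total rise had a median of 1.15 and ran from 1.01 to 1.91. Over all tested genes the medians of the same 3 differences were -0.46, -0.17 and -0.61, so the drifting genes went up between ages at which the median difference of all tested genes was below 0. A median of 53.8% of the rise was present at 5 weeks (interquartile range 37.9 to 66.0%). The split varied widely between genes, from 4.18% to 95.5%. In 65 of the 117 genes between 1/3 and 2/3 of the rise was reached by 5 weeks, in 25 less than that and in 27 more. The first step was the larger in 66 genes, both steps were at least 0.4 in 63, and in 16 the smaller step was under 0.25, so that most of their rise lay in a single interval.

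**Figure D2:**
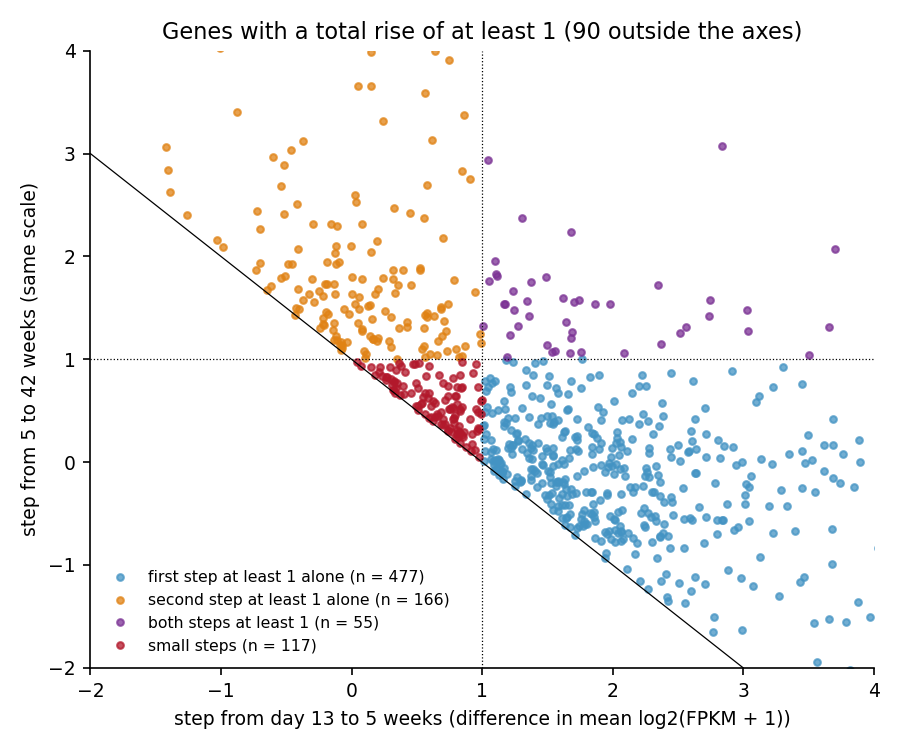
Step from day 13 to 5 weeks (x axis) against step from 5 to 42 weeks (y axis), as differences in mean log2(FPKM + 1), for the 815 genes with a total rise of at least 1, of which 90 lie outside the axes. The 117 drifting genes lie in the triangle between the dotted limits of 1 and the solid line where the total rise is 1. They border without a gap on the 477 and 166 genes that passed 1 at the first step alone or the second step alone. The 55 genes that passed 1 at both rose by 2.21 or more in total, against at most 1.91 in the drifting genes.

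The limits did not fall in a gap of the data. Within 0.1 of the minimum total rise lay 41 of the chosen genes, and 47 others that met the step limits missed it by no more than 0.1. The chosen genes nearest to it rose by 1.007, 1.009 and 1.014, and the nearest genes left out rose by 0.999, 0.998 and 0.997. At the first step, 17 chosen genes lay within 0.1 below the limit of 1 and 23 other rising genes within 0.1 above it, and at the second step these numbers were 13 and 12.

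By the rule for naming, the most abundant gene of the group was ENSGALG00000030690. It had 1264, 1085 and 1112 FPKM at day 13, then 2186, 1954 and 1845 FPKM at 5 weeks, and 3070, 3322 and 2023 FPKM at 42 weeks. Before hatching all its libraries lay below those of both later ages, but the third 42-week library fell inside the 5-week range. Its log2 differences were 0.79 for the first step, 0.46 for the second and 1.25 in total, each with an SE of 0.25 from the fit over all 9 libraries. Without the third 42-week library the second step was 0.68, but without the first it was 0.38 and without the second 0.32.

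The largest total rise belonged to ENSGALG00000029094, which was also second in abundance. It had 409, 329 and 353 FPKM at day 13, 777, 691 and 640 FPKM at 5 weeks, and 1195, 1283 and 1646 FPKM at 42 weeks. No library of 1 age overlapped with another age. Its 2 steps were almost equal, at 0.95 and 0.96 log2 units (SE 0.20 each), and the mean FPKM at 42 weeks was 3.78 times that at day 13. It lay so close to the limit that leaving out a library could carry a step past 1, as when the first 42-week library was left out and the second step became 1.05.

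ENSGALG00000010579, with the next largest total rise, was a gene of middle level. It had 5.64, 8.32 and 5.80 FPKM at day 13, 12.6, 14.1 and 11.0 FPKM at 5 weeks, and 23.6, 27.5 and 25.7 FPKM at 42 weeks. Its ages were separated at both steps, which measured 0.85 and 0.98 log2 units (SE 0.18 each), and its mean FPKM rose 3.89 times from day 13 to 42 weeks. This gene left the group without the second day-13, the second 5-week or the first 42-week library. In the last case its second step became 1.03.

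**Figure D3:**
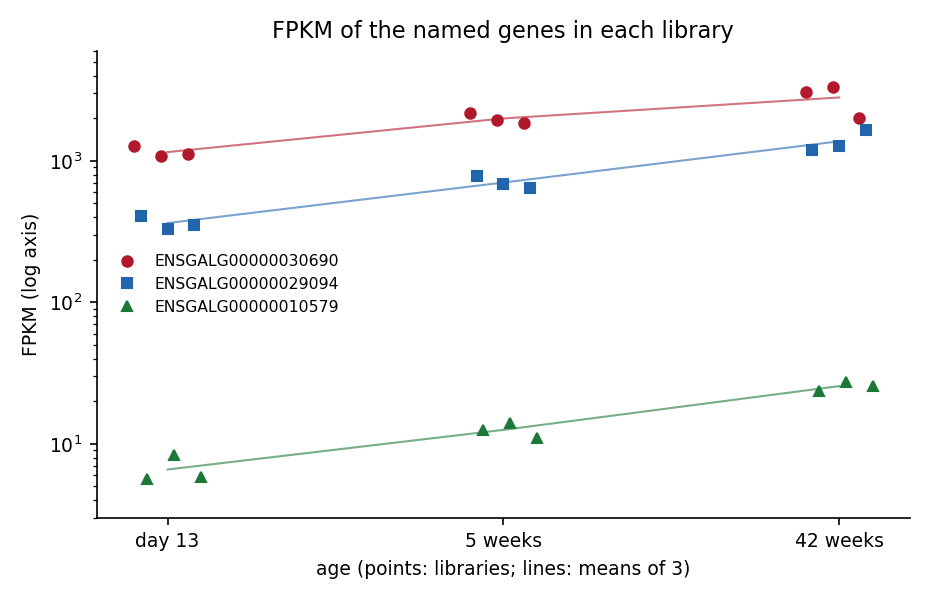
FPKM on a log axis for the 3 genes named by level and by rise, with a point for each library and a line through the mean of 3 libraries at each age. ENSGALG00000029094 and ENSGALG00000010579 separate all 3 ages, while ENSGALG00000030690 has 1 42-week library, at 2023 FPKM, inside its 5-week range of 1845 to 2186 FPKM.

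The other abundant genes of the group differed in how their rise was split and in how close their libraries lay. The third most abundant had 459, 352 and 387 FPKM at day 13, 632, 587 and 575 at 5 weeks, and 719, 817 and 1460 at 42 weeks, with no overlap between ages and with its highest value by far in the third 42-week library. The fourth had 165, 129 and 167 FPKM, then 144, 237 and 142, then 335, 550 and 183. Nearly all of its rise lay in the second step (0.93 of 1.08 log2 units), and 1 of its 42-week libraries lay inside the 5-week range. The fifth had 115, 102 and 139 FPKM, then 250, 101 and 287, then 165, 198 and 478, so that 1 of its 5-week libraries lay below all those of day 13. By contrast the sixth held its libraries close together, with 54.1, 53.4 and 50.5 FPKM at day 13, 81.5, 81.0 and 89.0 at 5 weeks, and 103, 126 and 116 at 42 weeks.

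The 117 genes together held a small and growing part of the mRNA signal. Their share of the summed FPKM of a library was 0.560% ± 0.041 before hatching, 0.958% ± 0.048 in the 5-week birds and 1.85% ± 0.14 in the 42-week birds (mean ± SD over 3 libraries). The 3 most abundant genes made up 0.353% ± 0.031, 0.625% ± 0.049 and 1.198% ± 0.095 of the signal at these ages, and the other genes of the group 0.208% ± 0.012, 0.332% ± 0.013 and 0.649% ± 0.061. The rise of these genes in FPKM follows from their choice. A share also depends on the summed FPKM of each library, which was not compared between ages.

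The drifting genes fell into the same bands of level as other genes, with a larger part under 1 FPKM. Over the 9 libraries, 12 (10.3%) had a mean under 1 FPKM, 65 (55.6%) between 1 and 10, 35 (29.9%) between 10 and 100, and 5 (4.27%) of at least 100. Their highest mean was 1985 FPKM, against 62915 FPKM over all tested genes. Of all tested genes 4.82% had a mean under 1 FPKM, 55.8% between 1 and 10, 35.0% between 10 and 100, and 4.38% of at least 100. At day 13 itself, 41 of the 117 genes had a mean under 1 FPKM, and the lower quartile was 0.451 FPKM, against 3.24 FPKM over all tested genes. None had a mean under 1 FPKM at 42 weeks, where the lowest mean was 1.17 FPKM. That follows from the choice of the genes, since a rise of at least 1 log2 unit from 0 or more ends at 1 FPKM or more.

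For the genes that began under 1 FPKM the step limits did not mean a small fold change, because adding 1 before taking the log compresses values near 0. In FPKM itself their change was small, with 42-week means of 1.17 to 4.11 FPKM. Among the 36 genes with a day-13 mean above 0 but under 1 FPKM, the mean at 42 weeks was a median of 6.002 times that at day 13, with a range from 3.30 to 42.0 times, and in 33 of them it was at least 4 times. Some of these genes were listed at 0 in 1 or 2 day-13 libraries, and such values were counted as 0, which raises the fold. The gene at 42.0 times had 0.108, 0 and 0 FPKM at day 13, so the top of the range is not a reliable fold. The median was 2.89 times among the 46 genes that began at 1 to 10 FPKM, 2.302 times among the 25 that began at 10 to 100 FPKM, and 2.43 times among the 5 that began at 100 FPKM or more. On the log2(FPKM + 1) scale the same 4 groups had nearly equal median rises of 1.15 (over 41 genes, those listed at 0 included), 1.18, 1.12 and 1.25.

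Of the 41 genes with a mean under 1 FPKM before hatching, 5 were listed at 0 in all 3 day-13 libraries and 13 in at least 1 of them. An exact 0 stands for a value below 0.1 FPKM and not for absence, so no fold is given for those 5. The one among them with the largest rise had 0.578, 1.15 and 0.659 FPKM at 5 weeks and 1.75, 2.31 and 2.59 FPKM at 42 weeks, with no overlap between ages. The one with the smallest rise had 0.417, 1.01 and 0.506 FPKM at 5 weeks and 0.494, 1.02 and 1.99 FPKM at 42 weeks, so its libraries overlapped between both later ages.

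How far each rise exceeded the spread between libraries was described with limma, in a linear model fitted to all 11512 genes and 9 libraries, with Benjamini-Hochberg adjusted p-values. For the total rise, 115 of the 117 genes had an adjusted p under 0.05, where 11.1% of all tested genes were higher by that threshold. The first step passed in 63 genes (background 12.2%) and the second in 40 (background 10.3%). Fitted to the 2 compared ages alone, the first step passed in 86 genes (background 15%) and the second in 30 (background 7.44%). The first-step count was 35 without the second day-13 library (background 9.75%), 38 each without the third day-13 library (9.94%) or the second 5-week library (10.1%), and 109 under median scaling (28.8%). The second-step count was 25 without the second 42-week library (6.84%) and 67 under median scaling (18%). With all libraries as deposited, both steps passed in 18 genes, against 0.86% of all tested genes. As the same differences chose the genes, these counts show precision and are no evidence for the group. The SE of a difference had a median of 0.24 log2 units over the 117 genes and ran from 0.14 to 0.53.

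Without a model, the libraries of 42 weeks lay wholly above those of day 13 in 110 of the 117 genes (11.9% of all tested genes). At the first step the libraries did not overlap in 86 genes (background 16.4%), and at the second in 52 (background 13.5%). A complete order, with every day-13 library below every 5-week library and every 5-week library below every 42-week library, was found in 38 of the drifting genes, against 1.36% of all tested genes. In 48 more the first step alone was free of overlap (background 15% of all tested genes, counted upward) and in 14 the second alone (background 12.2%). In the remaining 17 the later libraries were not wholly higher at either step (background 71.4%, genes that fell included), and in 5 of these not between day 13 and 42 weeks either (background 70.6%).

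Among the other genes with a total rise of at least 1, complete order was found in 20 of the 477 that passed 1 at the first step alone, in 32 of the 166 that passed it at the second step alone, and in 45 of the 55 that passed it at both. The drifting genes had a lower mean over the 9 libraries than these 3 groups, with a median of 4.89 FPKM against 11.6, 6.25 and 18.6 FPKM. At day 13 the order was the reverse, with a median of 2.62 FPKM against 1.96, 1.87 and 0.731 FPKM. The limits held the total rise of the drifting genes under 2, but not that of the other groups. The median share of the rise present at 5 weeks was 53.8% in drifting genes and 54.8% in the group past 1 at both steps. For each of these groups the limits treated both steps alike, which favours a middle share. The likeness therefore cannot be separated from the choice of the genes. The limits of the other groups favour an uneven split, and their medians were 107% past 1 at the first step alone and 3.55% at the second alone. All 4 groups were cut from the same differences in the same libraries, so these values are given side by side with no test.

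The 38 genes in complete order were tighter than the rest. Their SD between the 42-week libraries had a median of 0.23 log2 units, against 0.52 in the other 79 genes, and their mean over the 9 libraries a median of 8.27 FPKM against 3.62. The order was itself read from these libraries, so the smaller spread is part of how the 38 were picked. Among these 38 genes, 1 of those with the most similar steps, differing by under 0.1 log2 units, had 27.3, 25.4 and 23.7 FPKM at day 13, 36.3, 39.8 and 36.2 at 5 weeks, and 52.1, 58.3 and 58.9 at 42 weeks. Its steps were 0.54 and 0.58 log2 units, and the ages lay well apart. Another had 3.04, 2.65 and 2.19 FPKM at day 13, then 3.67, 5.50 and 3.66, then 6.27, 6.82 and 7.08, with steps of 0.53 and 0.57 that were as close to each other. At low level a gene with 0.356, 0.517 and 0.279 FPKM at day 13 reached 0.963, 1.58 and 0.911 at 5 weeks and 1.74, 2.16 and 2.81 at 42 weeks.

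Spread between libraries was largest at the oldest age. The median SD of a drifting gene between replicates was 0.16 log2 units before hatching, then 0.24 in the 5-week and 0.38 in the 42-week birds, beside 0.15, 0.19 and 0.29 over all tested genes. On the deposited scale these SDs include shifts of whole libraries. The library medians of all tested genes had an SD of 0.066 log2 units before hatching, 0.107 at 5 weeks and 0.227 at 42 weeks. The other genes with a total rise of at least 1 had a larger median SD at 42 weeks than the drifting genes. It was 0.62 log2 units in those past 1 at the first step alone, 0.51 at the second alone and 0.57 at both. An SD of at least 0.5 at 42 weeks was found in 47 of the 117 genes (40.2%) and in 18.0% of all tested genes. The libraries behind this SD also went into the choice of the genes. The second step was smaller than the SD between the 42-week libraries in 36 genes, and the first was smaller than the SD between the 5-week libraries in 14.

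Many of the drifting genes had an extreme value in the third 42-week library. In 22 of the 117 genes it was at least 1 log2 unit above the mean of the other 2 libraries of that age, and in 7 at least 1 below. Thus 24.8% of the group was off by that much, beside 9.63% of all tested genes. The same values helped to choose the genes, so this excess cannot be separated from the choice. The third 42-week library was the highest of the 3 in 69 of the 117 genes, or 59.0%, and in 71.4% of all tested genes. Without it 88 genes met the limits, of which 68 were among the 117 (58.1% of the group and 77.3% of the new list). Of the 49 genes that dropped out, 39 no longer reached a total rise of 1 and 10 had a second step of at least 1. Of the 22 genes in which the third library was that high, 18 fell under a total of 1 and 12 were lower at 42 weeks than at 5 weeks once it was left out. Of the genes that began under 1 FPKM, 20 of 41 were still in the group, beside 26 of 46, 20 of 25 and 2 of 5 at the rising levels. Among the 38 genes in complete order 31 stayed, and 37 of the other 79.

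**Figure D4:**
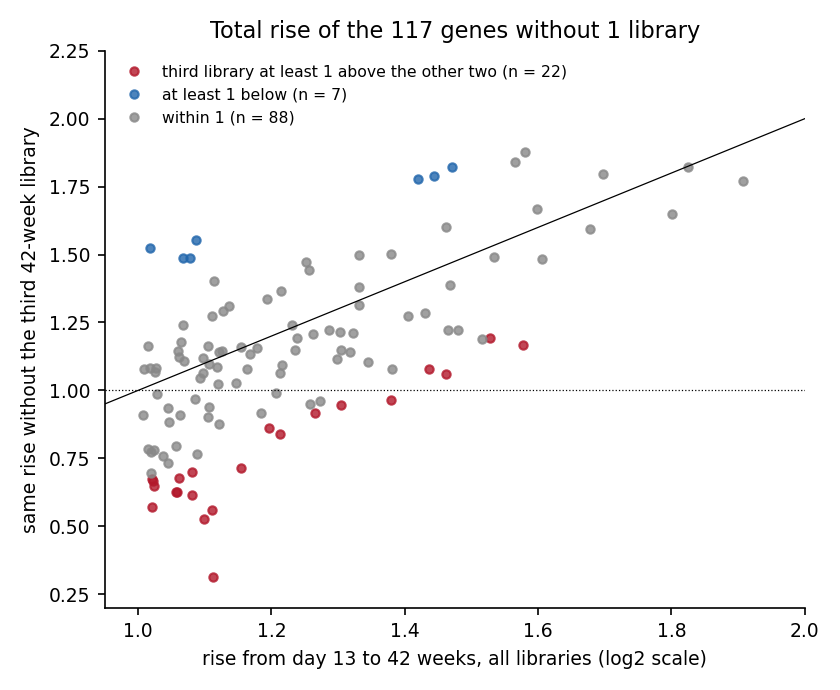
Total rise from day 13 to 42 weeks of the 117 drifting genes on the log2(FPKM + 1) scale, with all libraries (x axis) and without the third 42-week library (y axis). Red points, 22 genes in which that library was at least 1 above the mean of the other two, lie under the line of equality, and 18 of them fall under the dotted line at 1.

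The first 42-week library acted the other way on the number of genes. It was the lowest of the 3 in 65 of the 117 genes and in 64.1% of all tested genes, and without it 176 genes met the limits, 101 of the 117 among them. Of the 75 that joined, 70 had a total rise under 1 with all libraries. For the remaining libraries of the 3 ages, left out in turn, between 112 and 125 genes met the limits and between 90 and 103 of the 117 were kept. In all 9 of these settings 27 of the 117 genes stayed in the group, 19 of them from the 38 in complete order.

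Which genes count as small-step risers depended on the scale between libraries more than on any single library. When all libraries were shifted to the same median, 323 genes met the limits but only 23 of the 117 did, and after quantile normalization 306 genes and 42 of the 117. None of the genes left because its rise was lost. Median scaling moves each step by the same amount in every gene, here upward. Under it no rise of the group could be lost, and a step that reached 1 was the only way out. Of the 94 genes that left, the first step reached 1 in 81 and the second in 17, with 4 counted in both. Quantile normalization is not such a uniform shift, and under it too all 117 kept a total rise of at least 1 and 2 upward steps. The median steps of all 117 genes were 1.18 and 0.71 log2 units under median scaling, where the medians of all tested genes were 0.01 and -0.03. The 300 genes that joined had risen by a median of 0.57 on the deposited scale, all by less than 1. Under all 3 scalings 17 genes were in the group, and only 1 of them also stayed in every setting without 1 library. All 3 named genes left it under median scaling, with first steps of 1.26 for ENSGALG00000030690, 1.42 for ENSGALG00000029094 and 1.32 for ENSGALG00000010579. Under quantile normalization ENSGALG00000030690 stayed and the other two left.

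The offset added before taking the log moved mainly the low genes. With 0.1 FPKM added in place of 1, 118 genes met the limits and 58 of the 117 stayed. All 59 that left had a step of at least 1 on that scale. Of the 41 genes that began under 1 FPKM only 2 stayed, beside 27 of 46, 24 of 25 and 5 of 5 at the rising levels. ENSGALG00000030690 and ENSGALG00000029094 stayed with that offset, and ENSGALG00000010579 left with a second step of 1.03.

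**Figure D5:**
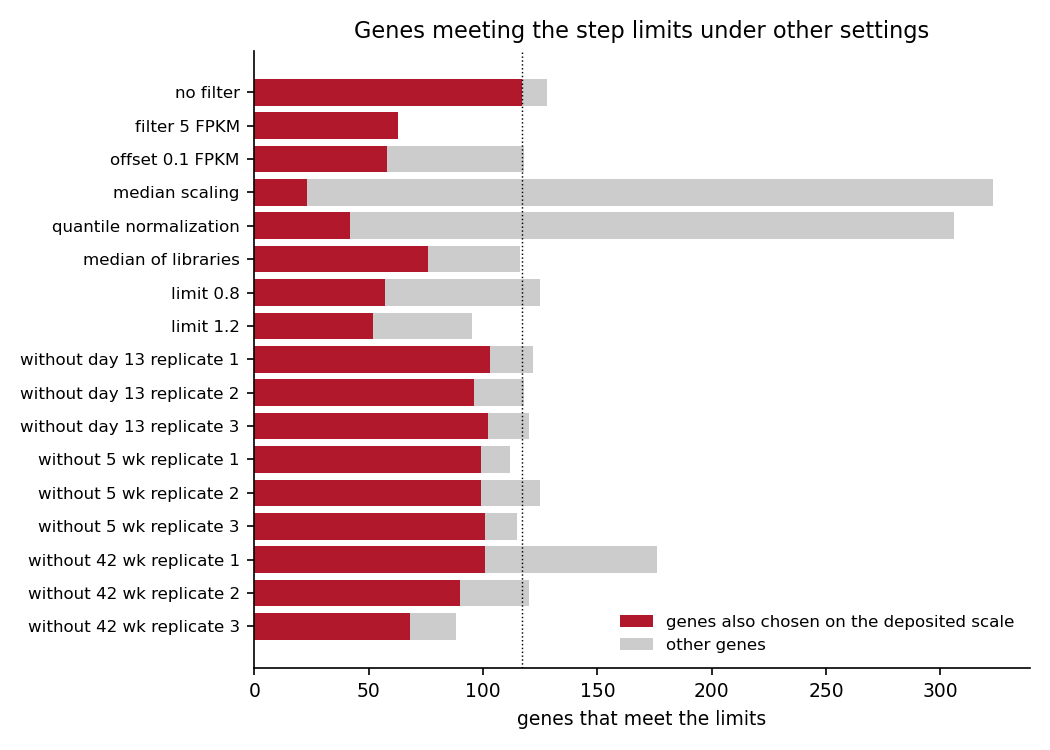
Number of genes that meet the limits under each other setting, split into genes that are also among the 117 of the deposited scale (red) and others (grey), with the dotted line at 117. Median scaling and quantile normalization keep 23 and 42 of the 117, and leaving out the third 42-week library keeps 68.

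Long non-coding RNAs are listed in a table of their own with the same 9 libraries. Of 2213 that reached 0.5 FPKM in 3 or more libraries, 21 met the same limits on steps and total, which is 0.949%, and 53 had a total rise of at least 1. The 21 had median steps of 0.57 and 0.63 log2 units and a median total rise of 1.14, and their mean level ran from 0.532 to 4.79 FPKM. The offset of that table was assumed to be 1 as well. How the authors scaled each table is not stated in the sources used here, so the levels are not compared.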

How the data were processed

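Liver RNA of 9 libraries, 3 per age, was taken up in TRIzol and prepared with an Illumina TruSeq kit, per the labels' protocols. HISAT, StringTie 1.3.3, Cufflinks 2.2.1 and DESeq2 are named in the submitters' processing notes with no role; the sources used here state neither build nor settings. The authors deposited log2 values of FPKM, read as log2(FPKM + 1), since the smallest mRNA value above 0 is 0.100 FPKM. Read depth is unknown, so error comes from the spread between libraries, which the labels call biological replicates. Each mRNA listed is above 0 in at least 5 libraries, so genes present at 1 age are not among them.

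The rule for the group and all lists were chosen with earlier results of these data known. Step means, overlaps and SDs were computed from the deposited values. limma 3.58.1 (R 4.3.3) fitted 1 mean per age to all 9 libraries with a variance trend, two-sided, with Benjamini-Hochberg adjustment over 11512 genes, and was tested on simulated data. The 2 genes highest in mean FPKM and the 2 with the largest rise are named, which gives 3 genes. Other genes given by rank were chosen after their values were seen. Gene lists, markers and promoter motifs chosen by symbol were not analysed here, as no identifier matched. All 9 value columns of both tables were used, and 0 were left aside.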

Additional observations from a re-analysis of the deposited data

How the results depend on the processing

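Of the 117 genes, 63 remained with a filter of 5 FPKM in 3 libraries. The number of genes that met the limits was 323 with libraries shifted to 1 median and 306 with quantile normalization, and leaving out each library in turn gave 88 (without the third 42-week library) to 176 (without the first). Limits of 0.8 or 1.2 in place of 1 gave 125 and 95 genes, with 57 and 52 of the 117 among them, and the median of libraries gave 116, with 76 of the 117. No filter gave 128. Members with an adjusted p under 0.05 from limma numbered 115 for the total rise (11.1% of all tested genes), with 104 to 115 when 1 library was left out (9.36% to 12.4% of all tested genes). For the first step they numbered 63, but 109 after median scaling, 100 with quantile normalization (28.8% and 25.6% of all tested genes, beside 12.2%) and 35 to 82 without 1 library, the lowest without the second day-13 library (9.75% of all tested genes) and the highest without the third 42-week library (14.6%). Leaving out the third day-13 or the second 5-week library gave 38 each (9.94% and 10.1%). For the second step they numbered 40, but 67 under both scalings (18% and 17.6%, beside 10.3%) and 25 to 52 without 1 library, the lowest without the second 42-week library (6.84%) and the highest without the third (10.7%). The cause was not tested. A replicate block gave 116, 61 and 38 genes for the total rise, the first and the second step (10.9%, 11.9% and 9.38% of all tested genes). With the 2 compared ages fitted alone, these counts were 115, 86 and 30 (10.4%, 15% and 7.44%). Deviations from the age means correlated by -0.05 to 0.14 between libraries of the same replicate number, above 0.1 in 1 of 9 pairs. Between libraries of unlike number they correlated by -0.13 to 0.08, above 0.1 in 0 of 18 pairs. With 3 libraries per age, these values cannot decide whether the numbers pair the libraries. The complete order of libraries was found in 68 of the 117 genes after median scaling (4.75% of all tested genes), 67 with quantile normalization (4.3%), 44 when the third 42-week library was dropped (1.75%) and 56 when the first was (2.18%), the last added after seeing the data.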
